A study of Mus musculus with 12 samples.

Results

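The question asked of the data was whether gene expression under OAP2 equals the Oxa and APAP effects added together. All 12 RNA-seq libraries of the series took part, 12 of 12, in 4 groups of 3. All were labelled as wild-type 4T1 cells, an adherent line from a mouse mammary tumour that is widely used as a model of metastatic breast cancer. The treated groups were OAP2, Oxa and APAP, and the controls were titled PBS but carried DMSO as their treatment label. Oxa and APAP are usual short forms of oxaliplatin and acetaminophen, but the labels spell out neither and do not say what OAP2 is made of. Doses, exposure times and whether the 3 libraries of a group came from separate cultures are not stated by the labels, so the tests measure the spread between these libraries, which may be technical. The series text also speaks of a cell-derived xenograft, while every library is labelled as cells.

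Platinum drugs such as oxaliplatin bind DNA, and cells answer such damage through DNA repair, the p53 pathway and arrest of DNA replication. Acetaminophen lowers prostaglandin synthesis and forms a reactive product that glutathione removes. If agents act independently and multiply one another's effects on a transcript, their log2 fold changes add. A transcript far from that sum under another treatment shows a departure from additivity on the log scale.

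For each gene, the departure was the log2 level in OAP2 minus Oxa minus APAP plus PBS. A positive departure means that OAP2 lay above the sum of the Oxa and APAP effects, and a negative one that it lay below. The same number is the step to OAP2 from Oxa, less the step to APAP from PBS. Each library held between 64071751 and 71500487 estimated counts, and 12036 of 29937 listed genes reached 1 FPKM (fragments per kilobase of transcript, scaled to library size) in at least 3 libraries and were tested. Adjusted p values below are from edgeR's quasi-likelihood test with Benjamini-Hochberg adjustment over those genes, and a gene is said to be called where it is below 0.05.

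The control library PBS 2 stood apart from all others. Its red blood cell markers summed to 231 FPKM, against 0.07 to 0.37 FPKM in the other 11 libraries, and its neutrophil markers to 67.1 FPKM, against 0 to 0.54 FPKM. Epithelial markers had a mean log2 level between 6.98 and 7.35 in every library. On the first principal component (26.8% of variance) PBS 2 lay at 29.23, within the Oxa libraries at 23.61 to 33.84. PBS 1 lay at -6.9 and PBS 3 at -22.54. On the second (14.4%) PBS 2 lay at -37.87, far from the Oxa libraries at 12.78 to 20.27. PBS 1 lay there at -0.04 and PBS 3 at 3.12. OAP2 3 lay at -23.77 on the second component, against 3.85 in OAP2 1 and 3.35 in OAP2 2. Macrophage markers summed to 46.1 FPKM in PBS 1 and to 12.1 to 20.6 FPKM elsewhere. Bulk libraries cannot tell fewer cells of a type from less RNA per cell. The part of these markers in the departures was not tested. Counts and list medians are given with all 12 libraries and without PBS 2, and single genes in both fits where the call or the size differed.

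Against PBS, 632 genes were called in OAP2 (5.25%), 1217 in Oxa (10.1%) and 2 in APAP (0.0166%). Few genes were called for a departure from the sum when all 12 libraries were used. In the medians over those genes Oxa lay further from PBS than OAP2 or APAP did. Below an unadjusted p of 0.05 by edgeR's test of the departure were 1798 genes (14.9%). Of 12036 genes, 66 were called, or 0.548%, with 39 above the sum (0.324%) and 27 below it (0.224%). In the 39 genes above the sum, the median log2 change from PBS was 0.31 in OAP2, -0.66 in Oxa and -0.02 in APAP. In the 27 genes below it, the medians were -0.07 in OAP2, 0.87 in Oxa and 0 in APAP. The median departures were 0.90 and -0.88, and over all tested genes 0.01. Without PBS 2, 606 genes were called (5.03%), 293 above the sum (2.43%) and 313 below it (2.6%), and all 66 were among them with the same sign. Under upper quartile scaling these were 386 above and 262 below.

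The libraries that stood apart at these genes were those of Oxa. In 35 of the 39 genes above the sum every Oxa library was lower than the other 9 libraries, which was so of 5.63% of all genes. In 15 of the 39 every OAP2 library was higher than the other 9, against 2.56% of all genes. In 26 of the 27 genes below the sum every Oxa library was higher than the rest, against 7.29% of all genes, and in 4 every OAP2 library was lower, against 3.09%. Without PBS 2, Oxa was lowest in 240 of the 293 genes above the sum and highest in 283 of the 313 below it, against 8.78% and 11.5% of all genes. These shares describe genes that the same values called. The 12-library calls were fragile: leaving out OAP2 1, OAP2 2, or any library of Oxa or APAP left 0 calls by edgeR, with 1302 to 1987 genes below an unadjusted p of 0.05, and edgeR called 4 genes without PBS 1, 35 without PBS 3 and 57 without OAP2 3, of which 4, 25 and 42 were among the 66. The smallest adjusted p among the 66 was 0.0419. Without PBS 2, 66 genes, 45 above the sum and 21 below, were called in that fit and in each of 11 fits that left out a further library, and 26 of those belonged to the 12-library calls.

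**Figure D1:**
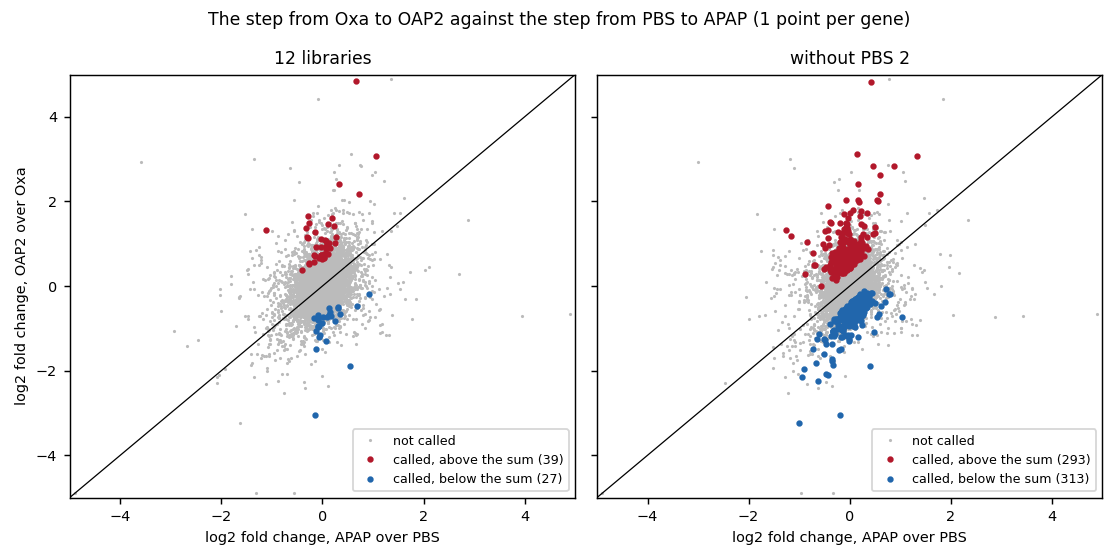
The log2 step to OAP2 from Oxa (vertical axis) is plotted against the log2 step to APAP from PBS (horizontal axis), 1 point for each tested gene, with all 12 libraries at left and without PBS 2 at right. The diagonal marks exact additivity, steps beyond the axes are drawn at the edge, and the 39 and 27 called genes at left, 293 and 313 at right, lie spread along the vertical axis with horizontal steps mostly near 0.

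Slpi, Rsad2 and Oasl1 were called above the sum with all libraries. Slpi encodes a secreted inhibitor of leukocyte proteases and lies at chr2:164354070-164356507 on the minus strand, as deposited (GRCm38, the build whose annotation has the same coordinates for 91.1% of the matched genes). Slpi had 60.0, 58.0 and 54.1 FPKM in OAP2, 23.6, 20.7 and 22.6 FPKM in Oxa, 26.8, 24.1 and 24.8 FPKM in APAP, and 27.5, 44.0 and 26.4 FPKM in PBS. All OAP2 libraries were higher than the other 9, and among the controls PBS 2 was the highest. The departure of Slpi was 1.70 ± 0.23 (SE; adjusted p = 0.0419), and 1.42 ± 0.12 without PBS 2 (adjusted p = 0.000252), so that OAP2 held 3.25 times the level that the sum predicts, or 2.68 times without PBS 2.

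Rsad2 encodes viperin, an antiviral enzyme that interferon induces. Rsad2 had 4.96, 3.89 and 2.56 FPKM in OAP2, 0.85, 0.57 and 0.72 FPKM in Oxa, 1.71, 1.92 and 1.66 FPKM in APAP, and 1.83, 1.11 and 1.38 FPKM in PBS. The OAP2 libraries were the highest and the Oxa libraries the lowest of the 12, with no overlap. The departure of Rsad2 was 2.1 ± 0.35 (adjusted p = 0.0419), or 2.25 ± 0.34 without PBS 2 (adjusted p = 0.00656). Oasl1, an interferon-induced relative of the oligoadenylate synthetases that in mouse restrains translation of Irf7, departed by 1.93 ± 0.38 (adjusted p = 0.0422), or 1.45 ± 0.24 without PBS 2 (adjusted p = 0.00876). Oasl1 averaged 18.2 ± 2.19 FPKM in OAP2, 5.82 ± 1.31 in Oxa, 9.34 ± 1.65 in APAP and 11.6 ± 5.69 in PBS (SD, n = 3 each), and PBS 2 at 18.2 FPKM lay within the OAP2 range of 16 to 20.3 FPKM.

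Rsad2 was the called member, with all libraries, of a list of 20 type I interferon response genes, of which 13 were tested. Over those 13 the departure was positive in 8 and negative in 5, with a median of 0.71, against 0.01 over all tested genes. Without PBS 2, Cxcl10, a chemokine that draws T cells, was called as well at 1.43 ± 0.35 (adjusted p = 0.0355; 0.0939 with all libraries), and the median was 0.57. Isg15, a ubiquitin-like protein induced by interferon, had 21.8, 17.4 and 19.0 FPKM in OAP2, 6.88, 7.62 and 8.26 FPKM in Oxa, 6.92, 4.82 and 7.23 FPKM in APAP, and 6.37, 8.85 and 4.22 FPKM in PBS. The OAP2 libraries of Isg15 did not overlap the other 9, but its departure of 1.36 ± 0.35 was not called (adjusted p = 0.0956; 0.0584 without PBS 2). Irf9, a transcription factor of the interferon response, was at -0.05 ± 0.29 with all libraries and 0.16 ± 0.23 without PBS 2, and was not called.

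The Rsad2 promoter is shown because the letters of the interferon-stimulated response element were common in this list. The search was for GAAA followed after 2 bases by another GAAA, on both strands, in the 300 bases from 250 before to 50 after the gene start in RefSeq, build GRCm38.p6. It was present in 9 of the 12 list promoters held by that table, against 2.82% of 8363 promoters of tested genes. Among called genes with all libraries it was in 2 of 27 promoters above the sum and 0 of 23 below it. Without PBS 2 it was in 7 of 217 above the sum (3.23%) and 8 of 250 below it (3.2%), near the share of all promoters. A match is a run of letters and not evidence of binding. The window is chr12:26456403-26456702 on the minus strand, and the capitals mark the match.
Rsad2: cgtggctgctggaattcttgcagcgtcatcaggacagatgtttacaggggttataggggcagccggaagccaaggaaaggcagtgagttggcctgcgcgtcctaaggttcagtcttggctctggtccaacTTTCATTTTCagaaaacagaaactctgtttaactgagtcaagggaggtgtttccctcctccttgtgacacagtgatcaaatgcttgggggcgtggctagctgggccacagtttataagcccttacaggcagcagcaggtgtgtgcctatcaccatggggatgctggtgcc

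The ER genes Hspa5 and Ero1l also lay above the sum. Hspa5 encodes BiP, the main chaperone of the endoplasmic reticulum (ER), whose transcription rises when unfolded proteins gather there. Hspa5 had 2267.4, 1902.0 and 1771.2 FPKM in OAP2, 814, 700 and 729 FPKM in Oxa, 1346.1, 1574.1 and 1147.6 FPKM in APAP, and 1186.7, 1255.4 and 1122.2 FPKM in PBS. All OAP2 libraries were the highest and all Oxa libraries the lowest. From PBS, Hspa5 rose by 0.75 in OAP2 (adjusted p = 0.00607) and fell by 0.66 in Oxa (adjusted p = 0.00825) on the log2 scale. Its departure was 1.18 ± 0.18 (adjusted p = 0.0419), and 1.13 ± 0.19 without PBS 2 (adjusted p = 0.00898). Ero1l, the oxidase that renews disulfide bonds in the ER and that also belongs to the list of hypoxia genes, averaged 102 ± 6.53 FPKM in OAP2, 46.0 ± 4.92 in Oxa, 79.2 ± 9.93 in APAP and 67.5 ± 4.06 in PBS, a departure of 0.88 ± 0.16 (adjusted p = 0.0419), or 0.93 ± 0.16 without PBS 2 (adjusted p = 0.0088).

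The letters searched for the ER stress response element, CCAAT followed after 9 bases by CCACG, occurred on either strand in 12 of 8363 promoters (0.143%). The Hspa5 window is shown because it is among those 12. It is chr2:34771840-34772139 on the plus strand in GRCm38.p6, its RefSeq start lies 120 bases from the deposited gene start, and the match, in capitals, begins 65 bases before the RefSeq start. Of the 23 promoters held for the list of ER stress and amino acid response genes, 3 had the string. Among genes called above the sum it was in 1 of 27 promoters with all libraries and 1 of 217 without PBS 2. Among those called below it, the string was in 0 of 23 and 0 of 250.
Hspa5: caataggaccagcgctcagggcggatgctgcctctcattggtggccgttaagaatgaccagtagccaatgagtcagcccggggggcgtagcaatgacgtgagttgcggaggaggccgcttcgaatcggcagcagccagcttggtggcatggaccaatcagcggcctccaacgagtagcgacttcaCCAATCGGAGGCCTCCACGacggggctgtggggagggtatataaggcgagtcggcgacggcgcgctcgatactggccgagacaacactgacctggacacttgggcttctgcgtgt

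In that list of 26 genes, all tested, Hspa5 and Cth were called with all libraries and 24 departures were positive, with a median of 0.28. Cth makes cysteine from cystathionine. Cth averaged 20.7 ± 4.89 FPKM in OAP2, 9.21 ± 0.809 in Oxa, 23.3 ± 1.61 in APAP and 29.5 ± 4.82 in PBS, and departed by 1.47 ± 0.22 (adjusted p = 0.0419), or 1.32 ± 0.20 without PBS 2 (adjusted p = 0.00656). Without PBS 2 the median of the list was 0.13 with 18 positive. Xbp1, a transcription factor of the unfolded protein response, was then called above the sum at 0.57 ± 0.12 (adjusted p = 0.0195; 0.0846 with all libraries), and Chac1, a glutathione-degrading enzyme under ATF4, below it at -0.91 ± 0.21 (adjusted p = 0.0294). With all libraries Chac1 stood at 0.06 ± 0.56 (adjusted p = 0.977). PBS 2 lay above the other controls here: the median log2 level of the list, relative to each gene's mean over the libraries, was 0.15 in PBS 2, against -0.05 in PBS 1 and -0.25 in PBS 3.

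**Figure D2:**
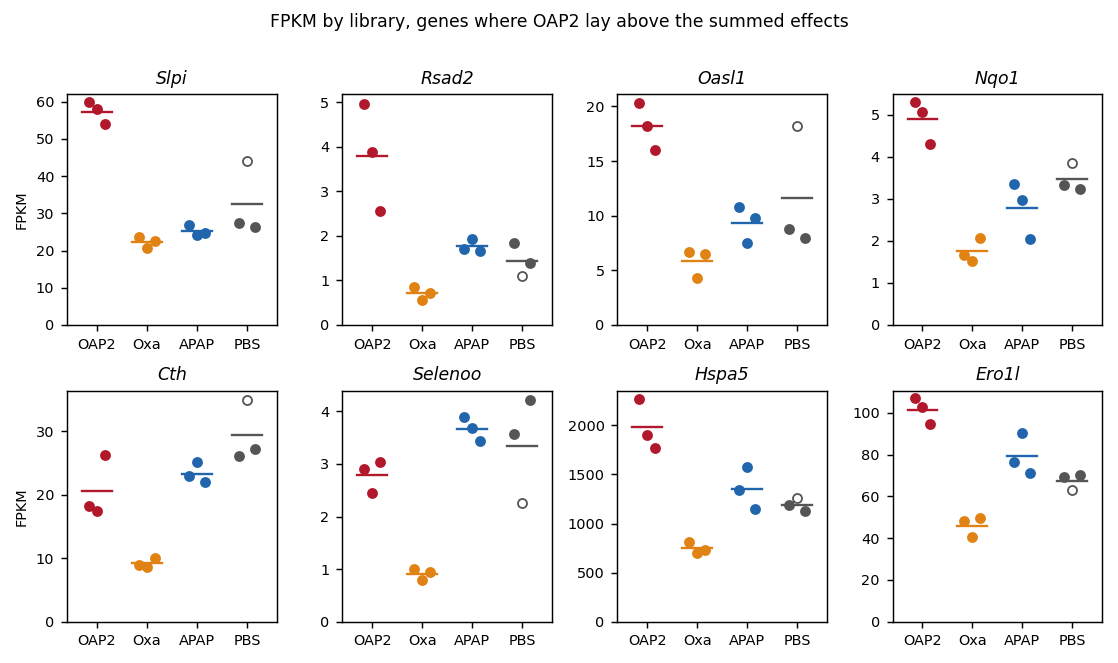
FPKM of 8 genes called above the sum, with 1 point per library, group means as bars and the groups OAP2, Oxa, APAP and PBS from left to right; the open circle is PBS 2. Hspa5 and Rsad2 were highest in the OAP2 libraries and lowest in the Oxa libraries, and in Selenoo and Cth the OAP2 mean lay between the Oxa and APAP means.

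Redox genes were represented by single calls. Nqo1, a quinone reductase and classical target of the transcription factor NRF2, had 5.29, 5.05 and 4.31 FPKM in OAP2, 1.65, 1.53 and 2.07 FPKM in Oxa, 3.35, 2.97 and 2.03 FPKM in APAP, and 3.33, 3.84 and 3.24 FPKM in PBS. OAP2 was above all other libraries, while the lowest APAP library lay inside the Oxa range. Nqo1 departed by 1.76 ± 0.31 (adjusted p = 0.0419), and by 1.68 ± 0.32 without PBS 2 (adjusted p = 0.0122). It was the called member among 22 tested NRF2 targets, 17 of them positive, with a median of 0.20, or 0.09 without PBS 2. Hmox1, which degrades haem, at -0.10 ± 0.17, and Gclm, the modifier subunit of glutathione synthesis, at -0.05 ± 0.15, were not called in either fit. Selenoo, a mitochondrial selenoprotein that transfers AMP to proteins, averaged 2.79 ± 0.304 FPKM in OAP2, 0.913 ± 0.112 in Oxa, 3.67 ± 0.235 in APAP and 3.34 ± 0.993 in PBS, and departed by 1.43 ± 0.28 (adjusted p = 0.0422), or 1.65 ± 0.20 without PBS 2 (adjusted p = 0.00247). Its gene overlaps Tubgcp6 on the other strand, and the strand setting of the counting is not given in the sources used here.

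Other genes above the sum with all libraries were Sh2d6 and Paqr3. Sh2d6, an SH2-domain protein, was at most 0.13 FPKM in Oxa and 1.22 to 2.73 FPKM in OAP2, so its departure of 4.18 ± 0.84 (adjusted p = 0.0441) rests on very low Oxa values. Paqr3, a Golgi protein that tethers RAF kinase, departed by 1.43 ± 0.28 (adjusted p = 0.0422), and its gene overlaps Bmp2k. Without PBS 2 the secreted genes Car6 (a carbonic anhydrase), Ccl5 (a chemokine), Lcn2 (an iron-siderophore binder) and Cdsn (corneodesmosin of keratinocyte junctions) joined. Ccl5 had 12.4, 10.4 and 11.4 FPKM in OAP2, 2.58, 3.35 and 3.29 FPKM in Oxa, 6.09, 6.15 and 6.36 FPKM in APAP, and 9.34, 3.15 and 7.77 FPKM in PBS. PBS 2 lay within the Oxa range for Ccl5, whose departure was 2.31 ± 0.24 without that library (adjusted p = 0.000791) and 1.97 ± 0.42 with it (adjusted p = 0.0629). Without PBS 2, Car6 departed by 2.96 ± 0.44 (adjusted p = 0.00602), Lcn2 by 1.97 ± 0.50 (adjusted p = 0.0387) and Cdsn by 1.73 ± 0.23 (adjusted p = 0.0035). With all libraries their departures were 2.55, 2.51 and 1.39, and none was called by edgeR (adjusted p = 0.0891, 0.0723 and 0.142).

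Thbs3 and Sipa1, called below the sum, were high in Oxa alone. Thbs3 encodes thrombospondin-3, a secreted matrix glycoprotein, at chr3:89215180-89226837 on the plus strand. Thbs3 had 3.19, 2.41 and 2.11 FPKM in OAP2, 6.90, 6.32 and 5.96 FPKM in Oxa, 3.31, 2.68 and 2.77 FPKM in APAP, and 2.72, 2.56 and 3.37 FPKM in PBS. The Oxa libraries stood alone at the top, and the other 3 groups overlapped. Thbs3 rose by 1.16 in Oxa over PBS (adjusted p = 0.00235), was at -0.15 in OAP2 over PBS (adjusted p = 0.662), and departed by -1.37 ± 0.23 (adjusted p = 0.0419), or -1.29 ± 0.23 without PBS 2 (adjusted p = 0.0107). OAP2 thus held 0.386 of the summed prediction.

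Sipa1, a GTPase-activating protein for Rap1, had 3.5, 3.13 and 1.98 FPKM in OAP2, 9.07, 7.91 and 7.42 FPKM in Oxa, 2.96, 3.34 and 3.74 FPKM in APAP, and 4.03, 3.51 and 3.74 FPKM in PBS. The pattern was that of Thbs3, with Oxa alone apart. Sipa1 departed by -1.37 ± 0.26 (adjusted p = 0.0419), or -1.32 ± 0.26 without PBS 2 (adjusted p = 0.0163). Phldb1, a cortical protein that anchors microtubules, departed by -1.11 ± 0.21 (adjusted p = 0.0419), Irf2bp2, a transcriptional co-repressor, by -1.07 ± 0.18 (adjusted p = 0.0419), and Limk1, the kinase that inactivates cofilin, by -1.03 ± 0.20 (adjusted p = 0.0422). Cand2, a muscle-enriched regulator of cullin ligases, departed by -1.14 ± 0.22 (adjusted p = 0.0422), but its gene overlaps Rpl32, which averaged 328 FPKM on the other strand. Hk1, the hexokinase that starts glycolysis, averaged 3.43 ± 0.395 FPKM in OAP2, 6.74 ± 0.643 in Oxa, 4.37 ± 0.16 in APAP and 4.79 ± 0.371 in PBS, a departure of -0.88 ± 0.16 (adjusted p = 0.0419). Hk1 and Ero1l were the called members, in opposite directions, of 24 tested hypoxia and glycolysis genes, whose median was -0.08.

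In the chromatin regulators Cbx2 and Mnt every treated mean exceeded the PBS mean, as it did in Irf2bp2 and Limk1. The step to APAP from PBS was not called by edgeR in Cbx2 (adjusted p = 0.0628) or Mnt (adjusted p = 0.242). Nor was it in Irf2bp2 (adjusted p = 0.6) or Limk1 (adjusted p = 0.486). Cbx2, a polycomb subunit that binds methylated histone H3, had 6.46, 6.74 and 5.41 FPKM in OAP2, 6.83, 7.13 and 7.23 FPKM in Oxa, 4.51, 4.12 and 4.20 FPKM in APAP, and 2.79, 1.86 and 2.25 FPKM in PBS. All PBS libraries were lower than all others. Cbx2 lay 1.44 above PBS in OAP2, 1.62 in Oxa and 0.93 in APAP, and departed by -1.11 ± 0.21 (adjusted p = 0.0419), or -0.98 ± 0.18 without PBS 2 (adjusted p = 0.0114). Mnt, a repressor that competes with MYC for its partner MAX, averaged 16.4 ± 1.51 FPKM in OAP2, 22.8 ± 2.03 in Oxa, 13.8 ± 3.19 in APAP and 8.80 ± 1.24 in PBS, and departed by -1.15 ± 0.23 (adjusted p = 0.0422). They were the called members of 23 tested polycomb, MYC network and chromatin genes, with a median of -0.06. Without PBS 2, Myc itself was called too, at -0.50 ± 0.12 (adjusted p = 0.0355; 0.0927 with all libraries), with 222 ± 14.3 FPKM in OAP2, 356 ± 11.6 in Oxa, 255 ± 10.6 in APAP and 301 ± 13.3 in PBS.

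**Figure D3:**
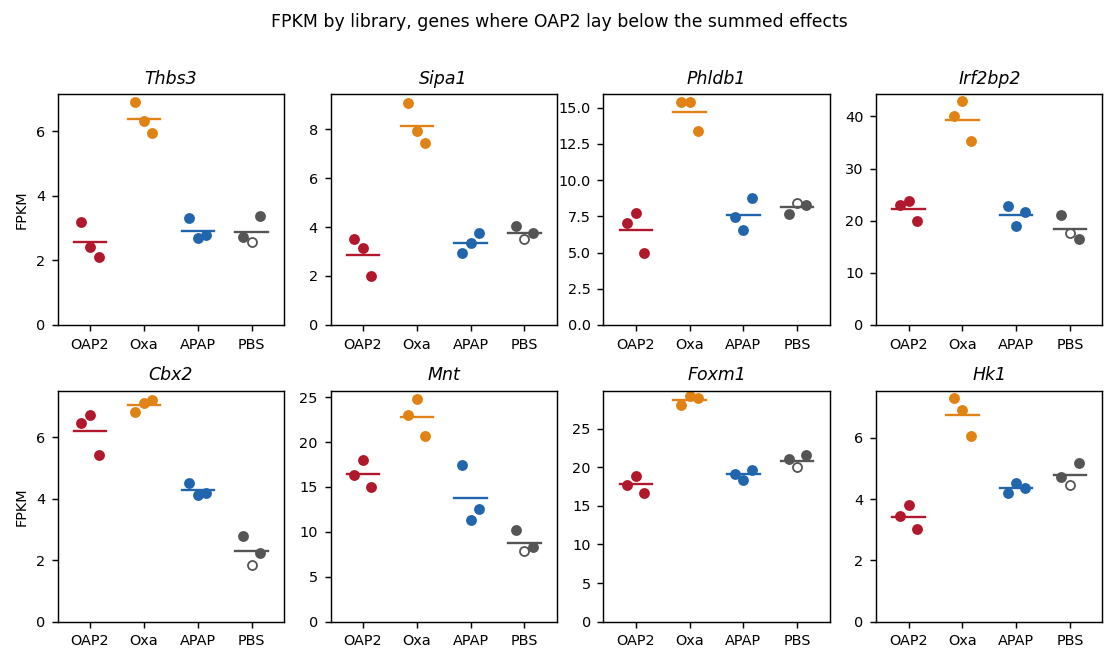
FPKM of 8 genes called below the sum, with 1 point per library, group means as bars and the groups OAP2, Oxa, APAP and PBS from left to right; the open circle is PBS 2. In Thbs3, Sipa1, Phldb1, Irf2bp2, Foxm1 and Hk1 the Oxa libraries stood above the other 9. They did so in Cbx2 and Mnt as well, where the PBS libraries were also the lowest.

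DNA replication genes held the most called members among the 28 lists once PBS 2 was left out. All 30 listed genes were tested. With all libraries 26 departures were negative and none was called by edgeR, with a median of -0.32. Without PBS 2, 29 were negative and 12 were called below the sum, against 2.6% of all genes, with a median of -0.50, against -0.01 over all tested genes. In that fit the median log2 change from PBS was -0.03 in OAP2, 0.43 in Oxa and -0.03 in APAP. Relative to each gene's mean, the list's median level lay between -0.20 and -0.14 in OAP2, 0.25 and 0.37 in Oxa, and -0.17 and -0.13 in APAP, and was -0.15 in PBS 1, 0.32 in PBS 2 and -0.12 in PBS 3. PBS 2 therefore sat with the Oxa libraries. Leaving out a further library kept the median between -0.53 and -0.45, with 2 calls without PBS 3 and 6 to 19 otherwise.

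The called genes of this list included 6 subunits of the MCM helicase, which unwinds DNA at the fork. Without PBS 2, Mcm3 departed by -0.80 ± 0.12 (adjusted p = 0.00656), with mean levels over all libraries of 35.1 FPKM in OAP2, 56.7 in Oxa, 34.4 in APAP and 40.3 in PBS. With all libraries Mcm3 stood at -0.50 ± 0.24 (adjusted p = 0.36). Pold1, the catalytic subunit of polymerase delta, had 5.82, 5.82 and 4.06 FPKM in OAP2, 10.2, 10.6 and 9.29 FPKM in Oxa, 5.80, 5.21 and 6.60 FPKM in APAP, and 6.20, 8.04 and 6.04 FPKM in PBS. Oxa stood above all others, and PBS 2 was the next highest. Pold1 departed by -0.91 ± 0.20 without PBS 2 (adjusted p = 0.0227) and by -0.77 ± 0.22 with it (adjusted p = 0.124). Pola1, the catalytic subunit of the polymerase that starts new strands, departed by -0.52 ± 0.11 without PBS 2 (adjusted p = 0.0214) and by -0.43 ± 0.13 with it (adjusted p = 0.149). The sliding clamp Pcna, at 0.08 ± 0.15 without PBS 2 and 0.36 ± 0.24 with it, was not called.

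E2F factors drive many replication genes, so the Pola1 and Pold1 promoters are shown. The strings TTTCCCGC or TTTGGCGC, on either strand, were present in 9 of 24 promoters held for this list, in 20 of 250 promoters of genes called below the sum without PBS 2 (8.0%), in 0 of 23 of those called below it with all libraries, and in 3.47% of all 8363. The windows are chrX:93632106-93632405 and chr7:44548766-44549065, both on the minus strand in GRCm38.p6, with the match in capitals.
Pola1: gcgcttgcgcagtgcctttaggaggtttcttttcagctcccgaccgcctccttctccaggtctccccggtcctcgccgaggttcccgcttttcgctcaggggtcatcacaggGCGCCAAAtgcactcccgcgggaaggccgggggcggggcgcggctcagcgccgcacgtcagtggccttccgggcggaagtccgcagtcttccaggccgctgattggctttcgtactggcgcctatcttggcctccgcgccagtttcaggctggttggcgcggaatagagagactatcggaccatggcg
Pold1: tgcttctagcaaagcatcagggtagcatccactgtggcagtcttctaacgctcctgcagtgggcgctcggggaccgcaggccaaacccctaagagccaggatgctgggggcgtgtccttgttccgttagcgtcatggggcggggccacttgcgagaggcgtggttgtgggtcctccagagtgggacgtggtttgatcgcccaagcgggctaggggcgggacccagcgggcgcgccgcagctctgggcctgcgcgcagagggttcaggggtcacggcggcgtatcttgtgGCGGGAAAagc

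The string TGANTCA, searched for AP-1 sites with any base at N, was present in 4.5% of all promoters. Without PBS 2 it was in 32 of 217 promoters of genes called above the sum (14.7%) and in 7 of 250 of those below it (2.8%). The strings TGACNNNGC and TGACGTCA were searched as well. In that fit TGACNNNGC was in 20.3% above the sum and 14.8% below it, against 14.8% of all. TGACGTCA was in 3.23% and 1.6%, against 3.6% of all. With all libraries TGANTCA was present in 2 of 27 promoters of genes called above the sum and in 0 of 23 of those below it.

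DNA repair genes leaned the same way with exceptions. Of 35 tested genes, 27 departures were negative with all libraries, with a median of -0.21 and none called by edgeR. Without PBS 2, 10 were called below the sum and Ercc1 above it, against 2.6% and 2.43% of all genes, with a median of -0.25. Leaving out a further library gave 2 calls below the sum (without PBS 3) to 10, with 4 without PBS 1 or APAP 1, 5 without Oxa 2 or APAP 3 and 6 without Oxa 1, and none above it by edgeR without APAP 3 or PBS 1. Lig1, the ligase that joins Okazaki fragments and shares its work between repair and replication, departed by -1.12 ± 0.14 without PBS 2 (adjusted p = 0.00274) and by -0.70 ± 0.31 with it (adjusted p = 0.31). Its mean levels over all libraries, PBS 2 included, were 9.37 FPKM in OAP2, 21.3 in Oxa, 9.20 in APAP and 13.2 in PBS. Fancd2, which marks stalled forks at crosslinks, departed by -0.72 ± 0.14 without PBS 2 (adjusted p = 0.0167) and by -0.55 ± 0.19 with it (adjusted p = 0.203). Ercc1, the partner of the nuclease XPF in removing platinum adducts, averaged 19.0 ± 0.722 FPKM in OAP2, 11.6 ± 0.753 in Oxa, 16.2 ± 1.08 in APAP and 18.0 ± 3.19 in PBS, and departed by 0.68 ± 0.14 without PBS 2 (adjusted p = 0.0196) and by 0.82 ± 0.18 with it (adjusted p = 0.0629). Its gene overlaps Cd3eap on the other strand.

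Mitosis genes as a list stayed near the sum, with a median of -0.02 over 28 genes, or 0.01 under upper quartile scaling, and -0.07 without PBS 2. Foxm1, the transcription factor of G2 and M phase genes, was called in both fits, at -0.60 ± 0.11 (adjusted p = 0.0419) and -0.57 ± 0.11 without PBS 2 (adjusted p = 0.0121). Foxm1 had 17.7, 18.9 and 16.7 FPKM in OAP2, 28.0, 29.2 and 29.0 FPKM in Oxa, 19.1, 18.4 and 19.7 FPKM in APAP, and 21.0, 20.0 and 21.6 FPKM in PBS. The Oxa libraries stood well above the rest, and the PBS libraries lay just above those of OAP2 and APAP. Kif20a, a kinesin of cytokinesis, was called without PBS 2 at -0.48 ± 0.12 (adjusted p = 0.039; 0.114 with all libraries). Targets of p53 had a median of 0.06 over 21 tested genes and -0.13 without PBS 2, when 1 was called below the sum. The 24 apoptosis regulators had medians of -0.14 and -0.13, and 1 of them was called below the sum without PBS 2. Of all genes, 2.6% were called below the sum in that fit, so 1 call in either list is near that share.

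Cytosolic ribosomal protein genes were above the sum in 43 of 44 cases, with a median of 0.50 and none called by edgeR. Without PBS 2 the median was 0.47, and Rpl3 was called at 0.69 ± 0.15 (adjusted p = 0.021; 0.0995 with all libraries). The OAP2 libraries disagreed here: the list's median level was -0.05 in OAP2 1, -0.23 in OAP2 2 and 0.49 in OAP2 3, against -0.26 to -0.08 in Oxa, -0.16 to 0.04 in APAP and 0.09 to 0.18 in PBS. Without OAP2 3 the median departure was 0.23, with 43 still positive. The 13 genes encoded by mitochondrial DNA were negative in 13 of 13 cases, with a median of -0.31 and none called by edgeR. Without PBS 2 the median was -0.17, again with 13 negative. Without PBS 2 and OAP2 3 it was -0.04 with 5 positive, and without PBS 2 and Oxa 1 it was -0.05 with 3 positive. Leaving out any other OAP2, Oxa or APAP library besides PBS 2 gave 0 or 1 positive.

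**Figure D4:**
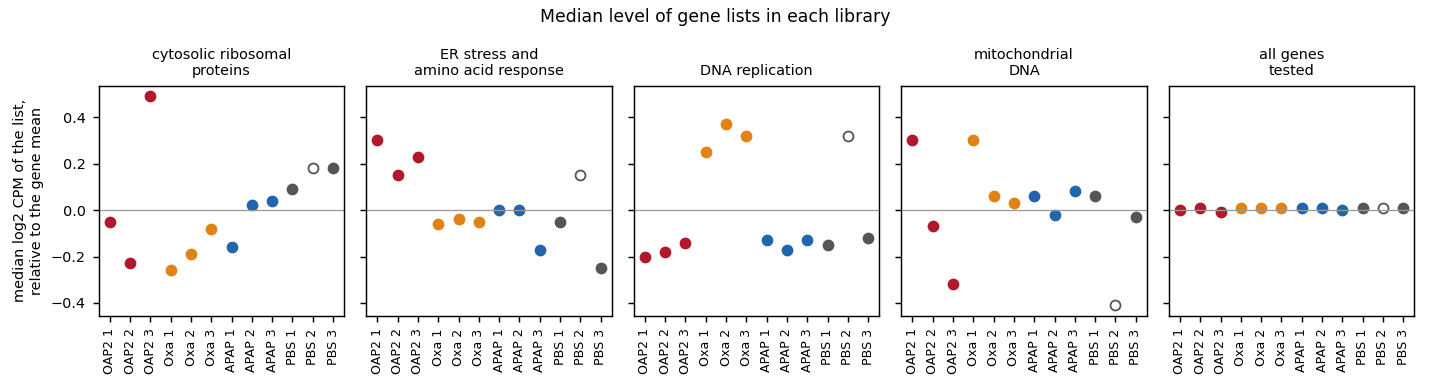
Median log2 CPM (counts scaled to library size) of 4 gene lists and of all tested genes in each library, relative to each gene's mean over the 12 libraries, with libraries ordered OAP2, Oxa, APAP and PBS; the open circle is PBS 2. PBS 2 at 0.32 lay with the Oxa libraries for DNA replication, and OAP2 3 at 0.49 lay apart for ribosomal proteins.

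Several lists changed their reading with PBS 2. Cholesterol synthesis genes had 21 of 23 positive departures and a median of 0.34 with all libraries, but 12 of 23 and 0.08 without PBS 2. Sqle, the squalene epoxidase, was then above the sum at 0.54 ± 0.12 (adjusted p = 0.0267; 0.0704 with all libraries), and Idi1, an isomerase earlier in the pathway, below it at -0.85 ± 0.20 (adjusted p = 0.0335). With all libraries Idi1 had the other sign, at 0.23 ± 0.60 (adjusted p = 0.91). Inflammatory cytokines and NF-kB targets had a median of 0.18 over 16 genes, but -0.19 without PBS 2. Immediate early genes had medians of 0.20 and 0.08 over 18 genes. Without PBS 2, 3 of them were called below the sum, Myc among these, and 1, Egr1, above it, against 2.6% and 2.43% of all genes. Egr1, a growth-factor response factor in that list, had 5.91, 5.97 and 3.92 FPKM in OAP2, 1.47, 1.23 and 1.15 FPKM in Oxa, 4.62, 6.42 and 5.88 FPKM in APAP, and 4.29, 17.7 and 3.68 FPKM in PBS. Egr1 was lowest in Oxa and far higher in PBS 2 than in any other library, and departed by 1.5 ± 0.26 without PBS 2 (adjusted p = 0.0109) and by 2.60 ± 0.65 with it (adjusted p = 0.0891).

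Krt14, Col7a1 and Ltbp2 were called below the sum without PBS 2. Krt14, the basal keratin, had 1.2, 1.31 and 1.5 FPKM in OAP2, 5.39, 6.55 and 5.43 FPKM in Oxa, 2.12, 2.09 and 1.74 FPKM in APAP, and 3.37, 19.9 and 2.12 FPKM in PBS. OAP2 was lowest and PBS 2 highest of all. Krt14 departed by -1.67 ± 0.33 without PBS 2 (adjusted p = 0.0147) and by -0.06 ± 0.82 with it (adjusted p = 0.986). Col7a1, the anchoring fibril collagen, averaged 13.5 ± 4.82 FPKM in OAP2, 57.6 ± 12 in Oxa, 14.0 ± 1.22 in APAP and 23.6 ± 6.44 in PBS, and departed by -1.61 ± 0.33 without PBS 2 (adjusted p = 0.0178) and by -1.37 ± 0.35 with it (adjusted p = 0.0927). Ltbp2, a matrix protein near elastic fibres, at -1.63 ± 0.37 (adjusted p = 0.0263), and Ppp1r12b, a myosin phosphatase subunit, at -1.42 ± 0.23 (adjusted p = 0.00743), were also called without PBS 2, and stood at -1.36 (adjusted p = 0.123) and -1.12 (adjusted p = 0.0995) with all libraries. So were Ctsw, a cathepsin known from cytotoxic lymphocytes, at -2.23 ± 0.35 (adjusted p = 0.00743), whose gene overlaps Fibp, and Il18rap, an interleukin-18 receptor subunit, at -1.55 ± 0.35 (adjusted p = 0.0256). With all libraries Ctsw stood at -1.60 ± 0.50 (adjusted p = 0.158) and Il18rap at -0.46 ± 0.66 (adjusted p = 0.804). Il18rap had 3.69 FPKM in PBS 2, against 0.86 and 0.82 FPKM in the other controls. The median over 22 tested keratin, desmosome and tight junction genes was 0.15, or 0.03 without PBS 2, and over 15 YAP and TEAD targets -0.22, or -0.25. Over 10 tested genes of the arachidonic acid and prostaglandin pathway it was 0.28, or 0.10. Ptger1, of that pathway, was called above the sum without PBS 2 at 1.89 ± 0.43 (adjusted p = 0.0271). With all libraries Ptger1 stood at 1.48 ± 0.62 (adjusted p = 0.278). Of the YAP and TEAD targets, 1 was called above the sum and 2 below it without PBS 2, against 2.43% and 2.6% of all genes. With all libraries 0 were called by edgeR. Leaving out a further OAP2, Oxa or APAP library besides PBS 2 gave 0 or 1 call above the sum and 0 to 3 below it by edgeR.

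**Figure D5:**
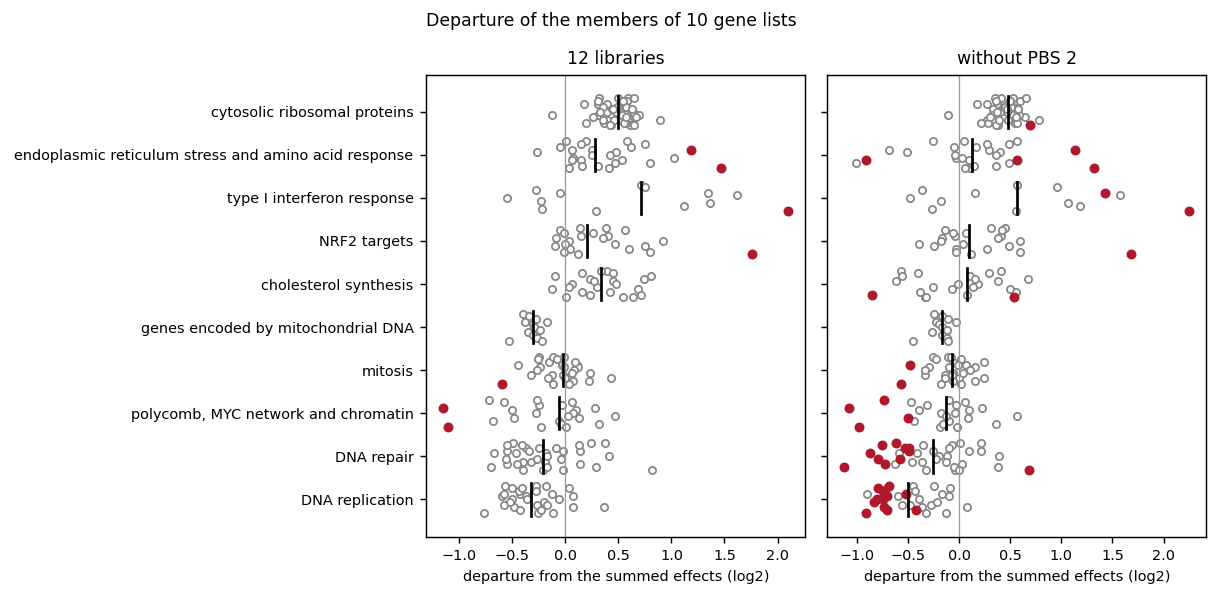
Departure of each tested member of 10 gene lists (log2, horizontal axis), with all 12 libraries at left and without PBS 2 at right; filled points are called genes and the vertical bar is the median of the list. DNA replication genes centre on -0.32 at left and -0.50 at right, where 12 are called, while the cholesterol synthesis median is 0.34 at left and 0.08 at right.

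A departure is not the same as a level outside every other group. In 32 genes, OAP2 was called against PBS, Oxa and APAP in the same direction, 16 above (0.133%) and 16 below (0.133%); without PBS 2 these were 113 (0.939%) and 166 (1.38%). Above all 3 groups stood Lcn2, Isg15, Ifi203 (an interferon-induced nuclear protein), Slpi and Tmx4 (an ER thioredoxin). Lcn2 had 22.3, 19.2 and 10.7 FPKM in OAP2, 2.27, 1.71 and 3.28 FPKM in Oxa, 3.19, 2.43 and 3.76 FPKM in APAP, and 2.45, 4.12 and 1.00 FPKM in PBS. The other 3 groups overlapped at low levels, and Lcn2 was 2.45 ± 0.42 higher in OAP2 than in APAP (adjusted p = 0.0283) and 2.85 ± 0.43 higher than in Oxa (adjusted p = 0.00129). Neutrophils also make Lcn2. Neutrophil markers summed to at most 0.54 FPKM in the OAP2 libraries, and their part in the Lcn2 levels was not tested.

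Below all 3 groups stood Dsg3 (a desmosomal cadherin), Sox9 (a transcription factor of progenitor cells), Ccbe1 (which aids activation of VEGF-C), Col8a1 (a short-chain collagen) and Fosl2 (an AP-1 subunit). Sox9 had 8.37, 9.39 and 9.05 FPKM in OAP2, 15.7, 16.1 and 13.5 FPKM in Oxa, 15.2, 17.7 and 18.6 FPKM in APAP, and 23.4, 21.1 and 22.9 FPKM in PBS. The groups of Sox9 ran in steps, with OAP2 below and PBS above all others. Its departure was -0.40 ± 0.15, which was not called (adjusted p = 0.241; 0.188 without PBS 2), and its log2 change from PBS was -1.32 in OAP2, -0.57 in Oxa and -0.35 in APAP. Dsg3 departed by 0.40 ± 0.14 (adjusted p = 0.218) and Fosl2 by -0.54 ± 0.12 (adjusted p = 0.0723; 0.0307 without PBS 2).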

How the data were processed

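RNA from 4T1 cells was poly(A)-selected and sequenced as paired reads, per the labels' protocols. The submitters' processing notes list StringTie 2.1.6, HISAT2 2.2.1 and cutadapt 1.9, besides edgeR and DESeq2, and the build mm9. Of 29864 deposited genes matched by identifier, 91.1% had exactly the coordinates of GRCm38, so positions are given as GRCm38. The authors deposited 1 table that holds estimated counts per gene, rounded here to whole numbers. The same deposited table gives FPKM per gene, scaled by length and library size. Columns named CON were read as the PBS samples, the group without a drug.

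The estimated counts were fitted with edgeR 4.0.16 in R 4.3.3, with TMM scaling, 1 mean per group, a 2-sided quasi-likelihood test of each contrast and Benjamini-Hochberg adjustment over 12036 genes with at least 1 FPKM in at least 3 libraries. Standard errors are the log2 change divided by the root of the F statistic. The biological coefficient of variation was 18.1%, or 15.1% without PBS 2. On counts simulated for the 12-library departure, 6 of 67 genes changed 1.5-fold, 41 of 67 changed 2-fold, 57 of 66 changed 4-fold and 0 of 11836 unchanged genes were called by edgeR. Alternatives used limma 3.58.1, voom weights, DESeq2 1.42.0, other scalings and filters, a linear-scale sum and libraries left out.

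Named genes were, in each of the 2 fits, up to 8 largest called departures per direction with a mean of at least 2 FPKM in the highest group, up to 3 members per described list by smallest p, and up to 5 per direction of the genes where OAP2 passed every other group. Predicted genes and pseudogenes were passed over. Chac1, Idi1, Irf9, Hmox1, Gclm, Mcm3, Pcna, Lig1 and Fancd2 were named after their values were seen, and so were genes that overlap a named one. The members and the gene lists were chosen with earlier results of these data known. The alternatives for those added genes, and the list values with a library left out, were chosen after seeing the data. Promoters are from RefSeq (GRCm38.p6), which held 8363 of the tested genes (69.5%).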

Additional observations from a re-analysis of the deposited data

Results flagged for a closer look

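The step to OAP2 from Oxa differed from the step to APAP from PBS, by edgeR's test of that difference, in 66 genes with all 12 libraries and in 606 genes without PBS 2. Both counts are differences between effects, which is why they are given again here. The 66 genes were 10.9% of the 606, and each had the same sign in both. Of the called genes, 17 above and 10 below the sum departed by more than 2-fold with all libraries, and 72 above and 38 below it without PBS 2.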

How the results depend on the processing

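The 66 calls over 12 libraries became 272 at an adjusted p below 0.10, 495 with the DESeq2 Wald test, 25 with limma on log2(FPKM + 1), 2 with limma on log2(FPKM + 0.1) and 0 with no filter on low values, where edgeR gave 2645 genes below an unadjusted p of 0.05. Leaving out each library in turn gave 0 to 606 calls. DESeq2 size factors (67), upper quartile scaling (80), voom (55), a minimum of 5 FPKM (81) and effects added on the linear scale (47) stayed within 1.5 times, but on the linear scale 19 lay above and 28 below the sum, and under upper quartile scaling 54 and 26. The 606 calls without PBS 2 became 1205 at an adjusted p below 0.10, 1269 with DESeq2, 394 on the linear scale and 207 with no filter. Leaving out a further library gave 333 without OAP2 1, 1248 without OAP2 3, 298, 209 and 367 without Oxa 1, 2 and 3, 198 and 236 without APAP 1 and 3, and 255 and 82 without PBS 1 and 3. The 32 genes where OAP2 passed every other group became 174 with DESeq2, and 0 (without APAP 2) to 279 (without PBS 2) with a library left out. With each library left out in turn, calls numbered 252 to 1976 for OAP2 against PBS, 477 to 3066 for Oxa against PBS and 0 to 3 for APAP against PBS. They numbered 688 to 2743 for OAP2 against Oxa and 0 to 916 for OAP2 against APAP. A smaller group was assumed to vary like the others. The cause was not tested.

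Pairing by replicate number was not supported by the values: in 18 pairs of same-numbered libraries the correlation of deviations ran between -0.152 and 0.155, and 1 pair exceeded 0.1. With the replicate number as a block, edgeR called 0 genes over 12 libraries (1760 below an unadjusted p of 0.05), 422 without PBS 2, 19 where OAP2 passed every other group and 30, against 57 with no block, for OAP2 against APAP.

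Of 1786 alternative values for 82 single genes, 1406 kept their direction and call, 284 lost the call, 71 gained it and 25 changed sign. For a gene not called with all libraries, keeping the call means staying uncalled. All 284 losses were of genes called with all libraries. Each of those genes lost its call in 10 of 22 alternatives (Slpi) to 17 of 21 (Selenoo). The 25 changes of sign were of Krt14, Chac1, Idi1, Irf9, Gclm and Hmox1, none of them called by edgeR with all libraries. Krt14, at -0.06 with all libraries, was 0.46 on the linear scale and ran between -1.67 (without PBS 2) and 0.41 (without PBS 3) with a library left out. Chac1, at 0.06, was -0.25 with voom, -0.21 and -0.22 with limma at pseudocounts of 1 and 0.1, -0.09 on the linear scale and -0.12 with the replicate block, and ran between -0.91 (without PBS 2) and 0.43. Idi1, at 0.23, was -0.15 with voom, -0.02 and -0.10 with limma at those pseudocounts, and ran between -0.85 (without PBS 2) and 0.60. With a library left out, Irf9 ran between -0.27 and 0.16, Gclm between -0.14 and 0.03 and Hmox1 between -0.24 and 0.02. With 3 libraries per group, 6 of 67 simulated 1.5-fold changes were recovered, so small departures were mostly not detectable in that simulation. It held no Oxa effect and no library like PBS 2, so it does not give the recovery of the real fit.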
